A study of Mus musculus with 6 samples.

Results

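Amino acids cross membranes on carrier proteins of several solute carrier (Slc) families, and 64 protein-coding genes of 7 such families were examined in Hepa1-6 cells, a mouse hepatoma line, after knockdown of Crebl2. The members are all protein-coding genes of GENCODE M21 whose symbol starts with Slc1a, Slc3a, Slc6a, Slc7a, Slc36a, Slc38a or Slc43a, out of 38828 genes and unmatched rows in the deposited tables. Membership was set by symbol and by no measured value, though the families were picked with earlier results of these data known. Prefixes also bring in genes that are no amino acid carrier. Slc7a6os, named for lying opposite Slc7a6, is no carrier. Slc43a3 encodes a carrier of purine nucleobases, and several Slc6a genes encode carriers of neurotransmitters, creatine or taurine.

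RNA was sequenced from 3 libraries of cells given siRNA against Renilla luciferase (Luc siRNA, the control) and 3 libraries of cells given siRNA against Crebl2, a bZIP protein with similarity to CREB. Libraries were made from total RNA with a stranded kit. Both groups were the same unmodified line, in high-glucose DMEM with glutamine and serum, and were transfected for 3 days with the same lipid reagent. The medium thus supplied amino acids to every group, and neither separate cultures nor the number of siRNAs is stated in the labels. P-values therefore reflect the spread among these 6 libraries alone, and that spread may be technical. Values are deposited read counts per transcript, here summed per gene and given as CPM, counts relative to library size, after TMM, a scaling that sets the bulk of genes equal between libraries. Depth ran from 27082572 to 29158489 counts per library. Crebl2 itself had 114, 113 and 112 CPM in the control libraries and 29.1, 29.8 and 32.3 CPM in the Crebl2 siRNA libraries (log2 fold change -1.90, edgeR adjusted p = 2.83e-12; exact two-sided permutation p = 0.1, the smallest that 3 against 3 libraries can give). Albumin (581 ± 29.2 CPM, SD, n = 3, in controls) and alpha-fetoprotein (278 ± 1.21 CPM, SD, n = 3) were well counted. Of 12 hepatocyte markers 6 stayed under 1 CPM in every library. Among them Hnf4a, Apoa2, Foxa2 and Serpina1a have only 6, 45, 162 and 221 countable bases, and Hnf4a was at 0. Ttr and Apoa1, however, have 1186 and 1035, and their control means were 0.274 and 0.648 CPM. All 5 endothelial and all 4 neuronal markers stayed under 1 CPM, though Tek and Syt1 among them have only 48 and 89 countable bases. The leukocyte gene Ptprc (429 countable bases) and the fibroblast genes Col3a1 (5423) and Pdgfrb (126) were listed at 0. A low value says little where countable bases are few. The summed level of 8 fibroblast markers, mostly Dcn, ran from 176 to 182 CPM in controls and from 119 to 131 CPM after knockdown, and that of 6 macrophage or leukocyte markers from 37 to 39.3 and from 23.1 to 27.8 CPM. All 4 cholangiocyte markers were counted, at 691 to 755 CPM summed in controls and 661 to 721 CPM after knockdown, with 2 higher (Krt19, Sox9) and 1 lower (Krt7). Of 7 tested hepatocyte markers 1 was higher (Afp) and 3 lower (Fgb, Foxa3, Trf). The part of these shifts in the results below was not tested. Mitochondrial genes took 0.859% of counts in Crebl2 siRNA replicate 2 and 2.09 to 2.52% in the other 5 libraries.

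Amino acid carriers differ in what they move and what drives them. Members of the Slc1a family take up glutamate or small neutral amino acids with sodium. Slc7a light chains exchange amino acids and mostly need a single-pass heavy chain, Slc3a2 or Slc3a1, to reach the membrane, whereas Slc38a and Slc6a carriers use the sodium gradient and some Slc36a carriers, such as Slc36a1, the proton gradient. In many cell types the kinase GCN2 and the transcription factor ATF4 raise several of these genes when amino acids run short, through a composite C/EBP-ATF element in the DNA, and NRF2 acts through antioxidant response elements.

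Promoter stretches were read because ATF4 and NRF2 are the best known regulators of the xCT gene Slc7a11 and its relatives. The windows run from 250 bases before to 50 bases after each RefSeq start (GRCm38.p6), and 46 of 64 members had one. On either strand, the C/EBP-ATF core TGATGNAA was present in 4 of these 46 genes, and in 4.51% of all 27025 genes with a window. It occurred in 2 of the 19 tested members with a window, Slc7a11 and Slc7a7. The antioxidant response core TGACNNNGC was present in 9 of the 46 and in 14% of all genes, and in 5 of the 19 tested members, Slc36a1, Slc38a2, Slc43a1, Slc7a1 and Slc7a6. No member held both cores, so they did not overlap. Stretches from called members, and from Slc7a7 as the other tested member with the C/EBP-ATF core, follow 5′ to 3′ on the gene's strand, with the core in capitals, first the C/EBP-ATF core and then the antioxidant core. A match is a description of letters and no evidence of binding.
Slc7a11 (chr3:50443647-50443685, minus strand, bases -72 to -34 from the start): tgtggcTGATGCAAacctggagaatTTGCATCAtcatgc
Slc7a7 upstream (chr14:54418072-54418091, minus strand, -147 to -128): tgggctTGATGAAAggttca
Slc7a7 at its start (chr14:54417932-54417951, minus strand, -7 to 13, or -249 to -230 from another listed start): agaagcTGATGCAAcagctt
Slc36a1 (chr11:55204335-55204355, plus strand, -5 to 16): atcacgTGACAGGGCccggaa
Slc38a2 (chr15:96699741-96699761, minus strand, -33 to -13): gcccacTGACGCGGCgccccg
Slc7a6 (chr8:106168847-106168867, plus strand, -7 to 14 from 1 listed start and -74 to -54 from the other): tgcgagTGACGTGGCgtgggc

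Slc7a11 held 2 copies of the C/EBP-ATF core in 1 printed stretch, and they face each other on opposite strands. Slc7a7 also held 2 copies in 1 window, at -141 to -134 and -1 to 7, both on the gene's strand. The transcript changes of these genes are given with their families below.

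The families were sparsely but unevenly expressed. Of the 64 members, 24 had enough counts to be tested (65 counts or more over the 6 libraries), 18 had counts but too few (42 at most), 21 had a row with 0 counts throughout, and Slc6a16 had no row. A read counts only where it falls on bases that belong to 1 transcript, so a 0 is informative only where such bases exist. Of the 21 at 0, 6 had under 200 own bases, among them Slc1a4, Slc38a7 and Slc43a2, and 8 had from 200 to under 1000, among them the cationic carrier Slc7a2. The other 7 had 1000 or more and were the glutamate carriers Slc1a1 and Slc1a6, the dopamine carrier Slc6a3, the proline carrier Slc6a7, Slc6a14, Slc6a21 and the system A carrier Slc38a1. A count of 0 allows up to 3 counts, or 0.105 to 0.111 CPM, in a library, counting error only. A filter on low counts (edgeR's filterByExpr) kept these 24, and counts over members refer to them and not to the other 40 unless stated.

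Levels of different genes were compared per 1000 own bases (CPM per kb). This scale understates genes whose own bases lie in short pieces, since reads that reach a shared base are lost, and Slc3a2 (1300 own bases in 3 rows) and Slc6a8 (547) are the likeliest cases among the better counted members. Slc38a2, the sodium-coupled system A carrier SNAT2, stood first with 528 ± 34.5 CPM per kb in controls (SD, n = 3), and held 41.3 to 44% of the summed level of all 24 members in the control libraries and 37.3 to 39.7% in the Crebl2 siRNA libraries. Next came the glutamine exchanger Slc1a5 (185 ± 7.72), the arginine and lysine carrier Slc7a1 (149 ± 7.3), the taurine carrier Slc6a6 (111 ± 8.02) and the y+L light chain Slc7a6 (81.8 ± 2.63, each CPM per kb, SD, n = 3). No control library of any of these overlapped the next in order. The top 6, Slc7a6os included, held 90.6 to 91.1% of the summed level in controls and 86.4 to 87.3% after knockdown.

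**Figure D1:**
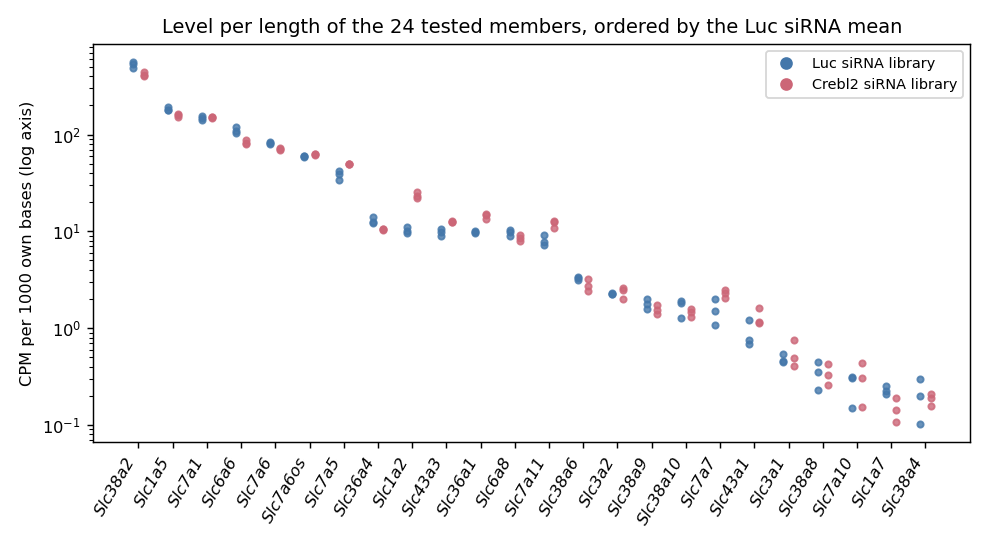
TMM-scaled CPM per 1000 own bases (log axis) of the 24 tested members, ordered by their mean in Luc siRNA libraries, with 1 point per library (3 Luc siRNA in blue, 3 Crebl2 siRNA in red). The first 7 keep their order, while Slc1a2 rises from rank 9 to rank 8 and Slc36a4 drops from rank 8 to rank 12.

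Below Slc7a5 (38.6 ± 3.97 CPM per kb), a group of 6 lay close together in controls. Slc36a4 led it at 12.9 ± 0.918 CPM per kb. Slc1a2, Slc43a3, Slc36a1, Slc6a8 and Slc7a11 followed at 10.2, 9.88, 9.79, 9.71 and 8.04 CPM per kb, and the control libraries of each neighbouring pair among these 5 overlapped. After knockdown the 6 spread out in a new order. Slc1a2 led at 23.7 ± 1.77 CPM per kb, Slc36a1 (14.4), Slc43a3 (12.6) and Slc7a11 (12.1) came next, and Slc36a4 (10.5) and Slc6a8 (8.59) were last.

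Of the 24 tested members, 5 rose and 5 fell at an edgeR adjusted p under 0.05. That is 41.7% called, beside 38.9% of all 11616 genes tested; 20.8% were higher and 20.8% lower, beside 18.8% and 20.1%. Groups did not overlap for 13 of the 24 members (54.2%), beside 48.8% of all genes. A change of at least 1.5-fold was called for 2 members, Slc1a2 and Slc7a11, while 11.1% of all genes had one. The median log2 fold change was 0.00 in the members and 0.01 over all genes, and the median size of change 0.23 and 0.21. In number, direction and size the members thus lay close to the background. Scaling by library size alone gave 6 members higher and 5 lower, and 2741 genes higher and 1920 lower in place of 2180 and 2338. Without Crebl2 siRNA replicate 2, the library low in mitochondrial counts, 12 members were called, 6 higher and 6 lower, and 3677 genes in all; the 2 added members were Slc38a6 and Slc6a19. The latter passed the filter there only through its Crebl2 siRNA libraries, where it is high, so its call supports nothing. In bulk RNA, fewer cells expressing a gene and less RNA per cell cannot be told apart.

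**Figure D2:**
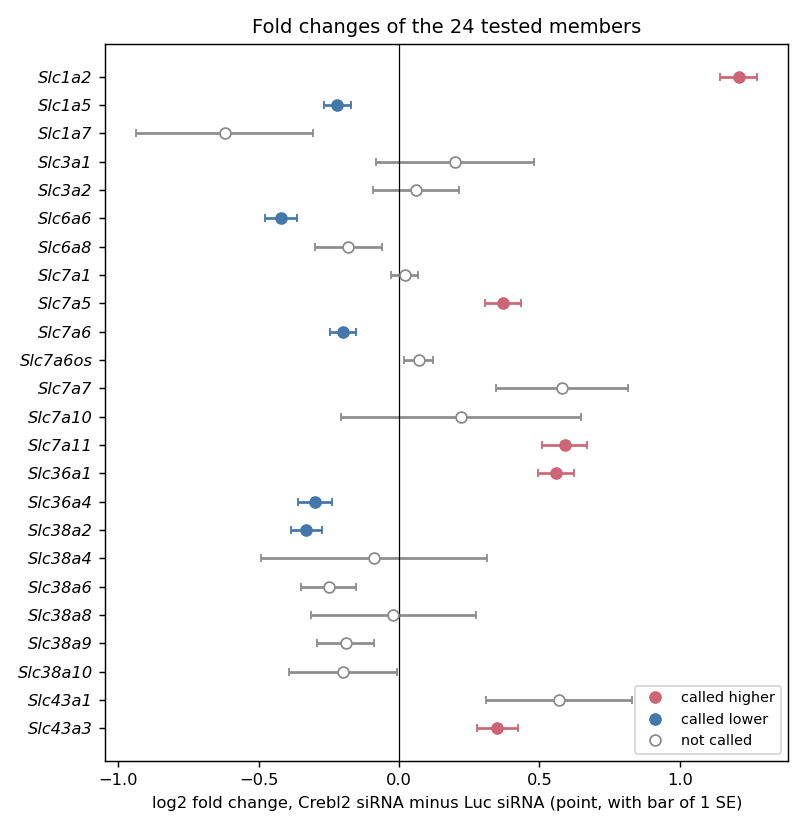
Log2 fold change (Crebl2 siRNA minus Luc siRNA) of the 24 tested members in family order, with bars of 1 SE from edgeR; red and blue points passed an adjusted p under 0.05 and open points did not. Slc1a2 lies at 1.21, and the other called members between -0.42 and 0.59.

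Among glutamate and neutral amino acid carriers of the Slc1a family, Slc1a2 rose and Slc1a5 fell. Slc1a2 (chromosome 2, 102658659 to 102790784, plus strand) encodes EAAT2, or GLT-1, the main glutamate carrier of astrocytes, which is also made in liver. It had 108, 92.1 and 96.9 CPM in control libraries and 224, 215 and 248 CPM in Crebl2 siRNA libraries. All 3 knockdown libraries were far above the controls, and the gene rose 131% (log2 fold change 1.21, SE 0.0662; edgeR adjusted p = 1.07e-09), the only member changed over 2-fold. All its counts came from 1 of 4 rows. Of 12092 exonic bases, 166 are shared with Gm13872 on the opposite strand.

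Slc1a5 (chromosome 7, 16781340 to 16798274, plus strand) encodes ASCT2, which exchanges glutamine for other neutral amino acids. Control libraries held 499, 535 and 497 CPM and Crebl2 siRNA libraries 450, 442 and 422 CPM. The groups did not overlap, and the gene fell by 14.2% (log2 fold change -0.22, SE 0.0488; edgeR adjusted p = 0.00181). Slc1a7, a retinal glutamate carrier, rested on 57 control and 37 knockdown counts, with a log2 fold change of -0.62 (SE 0.315), which did not pass the test at an edgeR adjusted p of 0.136.

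Of 7 tested Slc7a members, 2 rose and 1 fell (42.9% called, beside 38.9% of all genes). All 3 are light chains that pair with Slc3a2, and this heavy chain, on 504 counts, was not called. Slc7a11 (chromosome 3, 49892526 to 50443614, minus strand) encodes xCT, which brings in cystine in exchange for glutamate and so feeds glutathione synthesis. It had 73.8, 58.6 and 61.9 CPM in controls and 87.7, 102 and 103 CPM after knockdown, with no overlap, and rose 50.7% (log2 fold change 0.59, SE 0.0804; edgeR adjusted p = 2.2e-05). Slc7a5 (chromosome 8, 121881150 to 121907694, minus strand) encodes LAT1, the exchanger of leucine and other large neutral amino acids. Its control libraries were at 139, 148 and 120 CPM and its Crebl2 siRNA libraries at 175, 176 and 175 CPM. The knockdown libraries had an SD of 0.538 CPM (n = 3) and the controls one of 14 CPM (n = 3), with no overlap. The gene rose 29.3% (log2 fold change 0.37, SE 0.0634; edgeR adjusted p = 0.000211).

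Slc7a6 (chromosome 8, 106168857 to 106198706, plus strand) encodes y+LAT2, which exchanges arginine for glutamine and sodium. It fell by 13.2%, from 318, 305 and 298 CPM in controls to 273, 263 and 264 CPM (log2 fold change -0.20, SE 0.0473; edgeR adjusted p = 0.00264). Slc7a7, the other y+L light chain, had 0.771, 1.08 and 1.4 CPM in controls and 1.65, 1.44 and 1.77 CPM after knockdown. Its groups did not overlap, but on 90 and 135 counts the estimate of 0.58 on the log2 scale (SE 0.234) was not called at an edgeR adjusted p of 0.0589, and 232 of its exonic bases lie in Oxa1l on the other strand.

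The shared heavy chain Slc3a2 (4F2hc, chromosome 19, 8706882 to 8723369, minus strand) had 2.91, 2.94 and 3.03 CPM in controls and 3.22, 3.42 and 2.6 CPM after knockdown. These groups overlapped, and the estimate was 0.06 on the log2 scale (SE 0.152), with an edgeR adjusted p of 0.799. Only 504 counts fell on its own bases, 247 in controls and 257 after knockdown, a scaled ratio of 1.04 with a 95% exact binomial interval of 0.871 to 1.25 that covers counting error only. The ratio of Slc7a11 was 1.5 (1.45 to 1.56) and that of Slc7a5 1.29 (1.26 to 1.32) by the same count; whether heavy and light chains differed in response was not tested. Slc3a1, the heavy chain of the cystine carrier of kidney, was not called either (log2 fold change 0.20, SE 0.282, edgeR adjusted p = 0.61). Its light chain Slc7a9 had 2 counts in all, on only 231 own bases, so its low value says little.

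Slc7a1, the best counted Slc7a member, works without a heavy chain as the cationic carrier CAT1. It showed 1123, 1064 and 1018 CPM in controls and 1069, 1093 and 1084 CPM after knockdown. The groups overlapped, and the estimate was 0.02 on the log2 scale (SE 0.0483), with an edgeR adjusted p of 0.802. Leaving out 1 library moved it between -0.02 and 0.05. Slc7a10, an alanine, serine and cysteine carrier of brain, rested on 65 counts and was not called (0.22, SE 0.428). Slc7a6os had an estimate of 0.07 on the log2 scale (SE 0.0514) and an edgeR adjusted p of 0.314, although its 3 knockdown libraries (77.2 to 79 CPM) lay above the 3 controls (73.5 to 75.7 CPM).

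**Figure D3:**
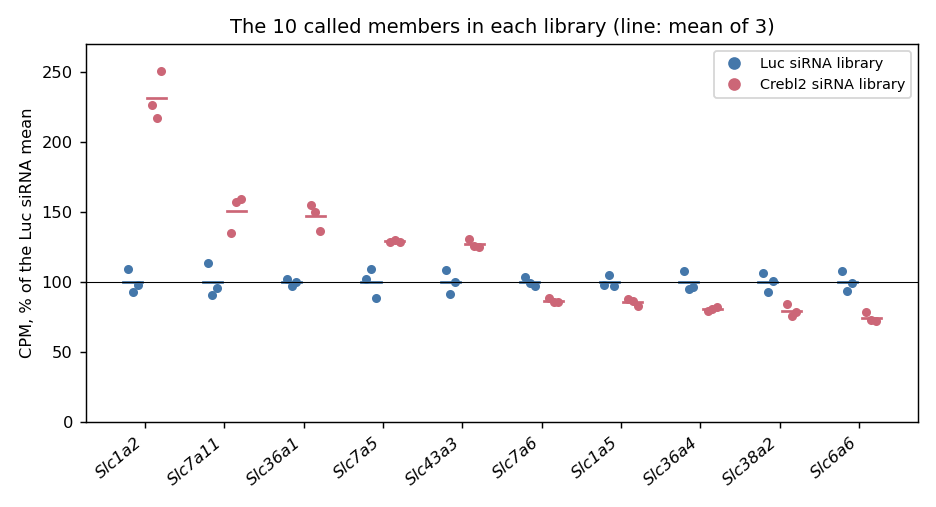
CPM of the 10 called members in each library as a percentage of the gene's Luc siRNA mean (linear axis from 0), with 1 point per library and a line at the mean of 3. The Crebl2 siRNA libraries (red) lie above every Luc siRNA library (blue) for 5 genes, furthest for Slc1a2, and below every one for the other 5.

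Of the 2 tested Slc36a members, 1 rose and 1 fell. Slc36a1 (PAT1, chromosome 11, 55204350 to 55236330, plus strand) encodes a proton-coupled carrier that exports small neutral amino acids from lysosomes and also acts at the cell surface. It had 34.6, 32.9 and 33.8 CPM in controls and 52.4, 50.7 and 46 CPM after knockdown, a rise of 47.1% (log2 fold change 0.56, SE 0.0648; edgeR adjusted p = 4.49e-06). Slc36a4 (PAT4, chromosome 9, 15709738 to 15743361, plus strand), a carrier of proline and tryptophan that is not proton-coupled, had 67.1, 59.1 and 60 CPM in controls and 49.4, 50.3 and 51.2 CPM after knockdown. It fell by 19% (log2 fold change -0.30, SE 0.0613; edgeR adjusted p = 0.000894), and neither gene's groups overlapped.

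In the Slc38a family 1 of 6 tested members was called (16.7%, beside 38.9% of all genes). All 6 fold changes were below 0, though those of Slc38a8 and Slc38a4 lay above 0 with limma-voom (0.01 and 0.03), and Slc38a8 also with library size scaling (0.03). Slc38a2 (chromosome 15, 96687392 to 96699730, minus strand) takes up alanine, glutamine and other neutral amino acids. It fell by 20.5%, from 2616, 2294 and 2475 CPM in controls to 2073, 1868 and 1928 CPM after knockdown (log2 fold change -0.33, SE 0.056; edgeR adjusted p = 0.000188). Every knockdown library was below every control library. Slc38a6, a carrier best known from brain, had an estimate of -0.25 on the log2 scale (SE 0.0979) and an edgeR adjusted p of 0.0573, from 16.9, 16.7 and 15.9 CPM in controls and overlapping values of 12.1, 16.1 and 13.6 CPM after knockdown. The lysosomal arginine sensor Slc38a9, which signals to mTORC1, was at 15.9 ± 1.97 CPM in controls and 13.9 ± 1.41 CPM after knockdown (SD, n = 3 each; log2 fold change -0.19, edgeR adjusted p = 0.15). Slc38a10, Slc38a8 and the liver system A carrier Slc38a4 had log2 fold changes of -0.20, -0.02 and -0.09, on 352, 149 and 66 counts, and were not called.

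Among Slc6a genes only Slc6a6 and Slc6a8 were tested. Slc6a6 (TauT, chromosome 6, 91684053 to 91759066, plus strand) imports taurine, which liver conjugates to bile acids. Control libraries held 737, 639 and 678 CPM and Crebl2 siRNA libraries 538, 501 and 495 CPM, the largest fall of any called member at 25.3% (log2 fold change -0.42, SE 0.0562; edgeR adjusted p = 1.83e-05). The creatine carrier Slc6a8 had 4.94, 5.34 and 5.65 CPM in controls and 4.37, 5.01 and 4.72 CPM after knockdown, which overlapped (log2 fold change -0.18, SE 0.121; edgeR adjusted p = 0.273).

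In the Slc43a family, Slc43a3 rose and Slc43a1 did not pass the test. Slc43a3 (chromosome 2, 84936579 to 84958509, plus strand) had 27.7, 23.4 and 25.5 CPM in controls and 33.4, 32.2 and 32 CPM after knockdown, a rise of 27.5% with no overlap (log2 fold change 0.35, SE 0.0721; edgeR adjusted p = 0.00102). Slc43a1, the sodium-independent leucine carrier LAT3, had 79 and 117 counts in the 2 groups. The estimate was 0.57 on the log2 scale (SE 0.259) with an edgeR adjusted p of 0.0949, and the groups overlapped, since control replicate 2 (1.29 CPM) exceeded 2 of the knockdown libraries (1.22 and 1.26 CPM).

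Of the 18 members counted too thinly to be tested, 3 had over 20 counts. Slc6a19, the B0AT1 carrier of gut and kidney, had 0, 1 and 4 counts in controls and 17, 7 and 13 in Crebl2 siRNA libraries. No control reached the lowest knockdown library. The scaled ratio was 7.41, with a 95% exact binomial interval of 2.9 to 24.2 that covers counting error only. Slc6a19 was singled out after its values were seen. The test without a filter on counts put it at 2.79 on the log2 scale (SE 0.634) with an edgeR adjusted p of 0.000109, while DESeq2 gave 2.87 and no adjusted p. For Slc1a2 that unfiltered fit gave an edgeR adjusted p of 4.06e-91, beside 1.07e-09 in the main fit. Its p-values are thus not comparable with the others given here. Slc6a13 (7 and 16 counts, ratio 2.29, 0.891 to 6.58) and Slc7a15 (8 and 19 counts, ratio 2.38, 0.994 to 6.28) had intervals of the same kind, which reach 1.

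Neighbouring pathways were read from 5 lists, whose genes are no members of the 7 families. These lists were chosen with earlier results of these data known. Other amino acid carriers, mitochondrial and lysosomal ones included, numbered 24, of which 12 were tested, 1 rose and 1 fell (16.7% called, beside 38.9% of all genes), with a median log2 fold change of -0.09. The glycine carrier of mitochondria Slc25a38 rose from 26.7 ± 1.56 to 32.8 ± 2.46 CPM (SD, n = 3 each; 0.30, edgeR adjusted p = 0.00401), and the vesicular glutamate carrier Slc17a7 fell from 1.39 ± 0.217 to 0.731 ± 0.143 CPM (SD, n = 3 each; -0.92, edgeR adjusted p = 0.00729).

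In the list of ATF4 and the amino acid response, 13 of 23 tested genes fell (56.5%, beside 20.1% of all genes) and 3 rose (13%, beside 18.8%), with a median of -0.29. The falls with the smallest p were those of the glutathione-cleaving enzyme gene Chac1 (log2 fold change -1.41), the pseudokinase gene Trib3 (-1.02), the alanine transaminase gene Gpt2 (-0.55) and Cebpb (-0.46). Atf4 itself, named after its values were seen, fell by 0.29 on the log2 scale. Among the tested members are 6 carrier genes known as ATF4 targets, a grouping made outside the lists and with the values known. Of these 6, Slc38a2 (-0.33) and Slc1a5 (-0.22) fell and Slc7a11 (0.59) and Slc7a5 (0.37) rose, where 38.9% of all genes were called. In the same grouping Slc7a1 (0.02) and Slc3a2 (0.06) were not called. ATF4 acts on these carrier genes together with other factors, and its part in their changes was not tested.

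**Figure D4:**
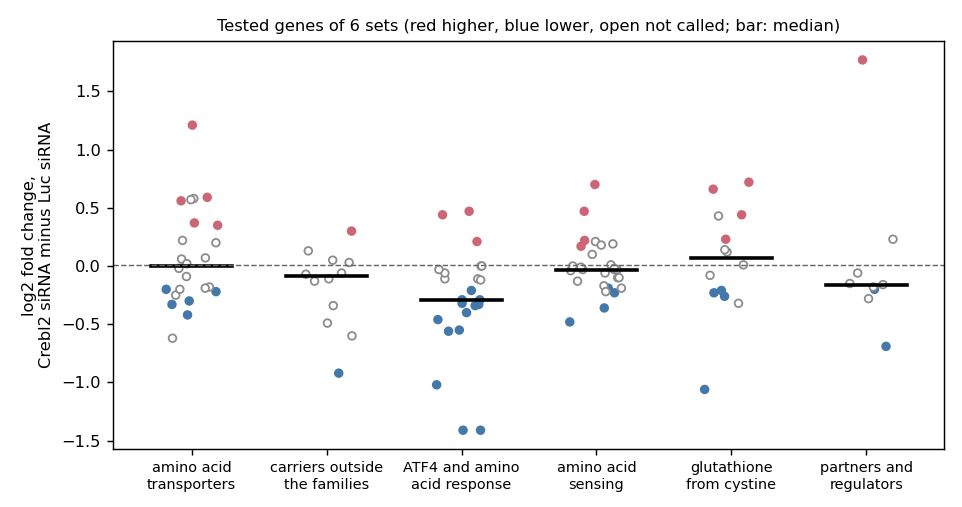
Log2 fold changes (Crebl2 siRNA minus Luc siRNA) of the tested genes in the transporter families and in 5 neighbouring lists, 1 point per gene (red higher, blue lower, open not called), with bars at each median and a dashed line at the median of all genes tested. The ATF4 list has the lowest median, -0.29, while the transporters have 0.00.

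The list for amino acid sensing by mTORC1 held 33 genes, parts of mTORC1 itself and its regulators included. Of these, 27 were tested, 4 rose and 4 fell, with a median of -0.03. That is 29.6% called, beside 38.9% of all genes. The arginine sensor Castor1 rose (log2 fold change 0.70, edgeR adjusted p = 9.03e-07), with 25.5 ± 1.32 CPM in controls and 41.5 ± 2.8 CPM after knockdown (SD, n = 3 each). So did the leucine sensor Sesn2 (0.47), whereas its relative Sesn3 (-0.48) and the Rag GTPase Rragc (-0.36) fell. Of 17 glutathione genes, 14 were tested, and 4 rose and 4 fell, with a median of 0.07. That is 57.1% called, beside 38.9% of all genes. Glutathione reductase Gsr rose (log2 fold change 0.72, edgeR adjusted p = 1.59e-08), with 246 ± 13 CPM in controls and 404 ± 10 CPM after knockdown (SD, n = 3 each), and the peroxidase gene Gpx1 also rose (0.66). The NRF2 gene Nfe2l2 (-0.26) and thioredoxin reductase Txnrd1 (-0.21) fell, while Slc7a11, which supplies the pathway with cystine, rose. Sesn2 and Cth stand in 2 of these lists each.

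Of 14 partners and regulators of carriers, 9 were tested, 1 rose and 2 fell (33.3% called, beside 38.9% of all genes), with a median of -0.16. Nedd4, a ubiquitin ligase of membrane proteins, fell (log2 fold change -0.20), with 2517 ± 81.8 CPM in controls and 2197 ± 95 CPM after knockdown (SD, n = 3 each). The thinly counted kinase gene Sgk1 also fell (-0.69), from 1.94 ± 0.24 to 1.2 ± 0.0389 CPM (SD, n = 3 each). DESeq2 called 1 of this list, not 3.

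A 7-base word, GAAATGT, chosen on these same data in an earlier look, is found in annotated 3' UTRs across the whole table, at 29.2% among genes that fell, 16.6% among those not called and 11.9% among those that rose. Median 3' UTR lengths differed likewise, at 1385, 996 and 986 bases in that order, and the part of length in these shares was not tested. Among the members it is in 2 of 5 that fell, Slc36a4 and Slc38a2, in 1 of 5 that rose, Slc1a2, and in 2 of 14 not called, Slc38a6 and Slc38a9, whose groups had median lengths of 2735, 3692 and 1060 bases. Its part in any of these changes was not tested. Slc1a5, Slc6a6 and Slc7a6 fell without holding it.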

How the data were processed

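The authors deposited raw read counts per Ensembl transcript, 58611 rows in each of 6 files, with no normalisation, per the file headers and values. The submitters' processing notes list Trim Galore, TopHat and HTSeq and the builds mm9 and GRCm38. Their versions, roles and strand setting were not given in the sources used here. GENCODE M21 (GRCm38) held 58264 of the rows, and the other 347 took up to 0.0497% of counts in any library. Rows with no base of their own (9603) held 0.0235% of counts, so reads shared by transcripts were apparently not counted. "Own bases" are exonic bases covered by 1 deposited transcript on either strand; 21 of the 24 tested members drew at least 90% of counts from 1 row.

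Counts were summed per gene and tested over all genes with edgeR 4.0.16 (R 4.3.3): TMM, filterByExpr, quasi-likelihood test, two-sided, Benjamini-Hochberg adjustment, called under 0.05. SE was derived from the fold change and its F statistic. The procedure was tested on simulated counts. Alternatives used DESeq2 1.42.0, limma 3.58.1, other scalings and filters, single or coding rows, the replicate block, and each library left out. The members, lists and word were chosen with earlier results of these data known. All tested members are named, as are at most 4 called genes with the smallest p per list. Some list genes that this rule names are not reported here. Tables of all samples had 0 columns left unmapped.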

Additional observations from a re-analysis of the deposited data

How the results depend on the processing

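All 10 called members kept their direction and their call in each of the 15 alternative settings. The number of members called ran from 10 to 12 (5 to 7 raised, 5 to 6 lowered), and that of all genes from 3639 to 4661. These member counts include Slc6a19 with no filter and where, with any of 4 libraries left out singly, it passed through its Crebl2 siRNA libraries. Of 14 uncalled members, 3 gained a call somewhere: Slc7a7 (1 CPM filter, library size scaling, or without Luc siRNA replicate 3), Slc38a6 (no filter, or without Crebl2 siRNA replicate 2) and Slc43a1 (without Luc siRNA replicate 2). Uncalled members with main estimates within 1 SE of 0 changed sign in some settings. Slc38a8 went to 0.03 with library size scaling and 0.01 with limma-voom, and ran between -0.25 and 0.21 with 1 library left out. Slc38a4 went to 0.03 with limma-voom, and ran between -0.41 and 0.32 with 1 library left out. Leaving out 1 library also moved Slc7a10 (0.22, SE 0.428) between -0.15 and 0.54, and Slc3a1 (0.20, SE 0.282) between -0.08 and 0.38. In the same way Slc3a2 ran between -0.02 and 0.17, and Slc7a1 between -0.02 and 0.05. The partner list went from 3 to 1 called with DESeq2. Library size alone moved the median of all genes from 0.01 to 0.05. Deviations of same-numbered libraries from their group means had correlations of -0.133, -0.0443 and -0.0847. These show no strong shared effect, but cannot settle whether the numbers pair the samples, which the labels do not state. With a replicate block 10 members and 3983 genes were called. The causes were not tested.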
